A study of Mus musculus with 21 samples.

Results

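The 10 histone acetyltransferase genes Crebbp, Ep300, Kat2a, Kat2b, Kat5, Kat6a, Kat6b, Kat7, Kat8 and Hat1 were examined in mouse hippocampus after ethanol. They were chosen by symbol, as enzymes that take the acetyl group of acetyl-CoA to acetylate histones. All 10 were among the 24498 genes of the counts table, and all 10 were among the 14578 genes that passed the filter on low counts. RNA was sequenced from hippocampus of male mice of 8 weeks. The study asked how the transcriptional response to ethanol depends on ACSS2, the enzyme that makes acetyl-CoA from acetate.

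Ethanol was given intraperitoneally at 2 g per kg as a 20% solution. The knockdown arm carried an AAV2/9 vector with a U6-driven short hairpin RNA against Acss2 and a CMV-driven EGFP. The sample protocol places the injection in dorsal hippocampus, while the series text can be read as a systemic injection. For the control arm no vector is described, so the absence of the hairpin and the absence of a virus cannot be told apart. The time between ethanol and dissection is not given either. The ethanol libraries with over 1000000 gene reads were 4 of dorsal knockdown, 3 of dorsal control, 3 of ventral knockdown, 4 of ventral control and 1 of total hippocampus with the knockdown vector. Whether replicates are separate animals is not stated in the labels, and p-values therefore reflect the spread of these libraries alone, which may be technical.

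Histone acetyltransferases fall into families with separate partners. CBP and p300, encoded by Crebbp and Ep300, are large paralogous coactivators that bind transcription factors such as CREB, and CBP is known for its part in memory formation in the hippocampus. GCN5 and PCAF (Kat2a and Kat2b) are alternative catalytic subunits of the SAGA and ATAC complexes. The MYST family holds TIP60 (Kat5), MOZ and MORF (Kat6a and Kat6b), HBO1 (Kat7) and MOF (Kat8), and Hat1 acetylates newly made histone H4 before it is assembled into chromatin.

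The genes lay on separate chromosomes, apart from Kat2a and Kat7 (GRCm38, GENCODE annotation). Crebbp occupied chromosome 16, 4081328 to 4213997, minus strand, and Ep300 chromosome 15, 81585351 to 81652077, plus strand. Kat2a was on chromosome 11, 100704746 to 100712465, minus strand, and Kat2b on chromosome 17, 53566861 to 53672720, plus strand. Kat5 was on chromosome 19, 5603014 to 5610237, minus strand, and its exons overlap those of Rnaseh2c on the opposite strand. Kat6a was on chromosome 8, 22859535 to 22943259, plus strand, and Kat6b on chromosome 14, 21481434 to 21672478, plus strand. Kat7 was on chromosome 11, 95274259 to 95310246, minus strand, and Kat8 on chromosome 7, 127912516 to 127925837, plus strand, where it overlaps Prss8 on the opposite strand. Hat1 was on chromosome 2, 71388958 to 71441622, plus strand. No source used here gives the strand setting of the counting. How reads in the stretches that Kat5 and Kat8 share with those neighbours were assigned, or whether they were set aside as ambiguous, is therefore not known. Annotated pseudogenes of Kat2b and Kat6b, and the small gene Gm23880 inside an Ep300 exon, add a like uncertainty. Merged exon length separated the members into long and short genes. Kat6b (16.8 kb), Ep300 (14.3 kb), Crebbp (13.5 kb) and Kat6a (9.18 kb) stood at or above the 87.1 percentile of length over tested genes, while Hat1 (2.89 kb) and Kat8 (2.89 kb) stood near the 25.4 percentile.

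RefSeq promoter windows (GRCm38.p6, 250 bases before and 50 after a gene start) were at hand for 9 of the 10 members. Those of Hat1, Kat8, Kat7 and Kat5 held the 8-base ETS-type motif CCGGAAGT or its reverse complement ACTTCCGG, which 3.89% of 32851 windows hold on either strand. Counted by window, 4 of the members' 13 held it, and the second windows of Kat8 and Kat5 did not. The motif was picked after these promoters had been read, so the share is a description. Positions are counted from the RefSeq starts, which can differ from the GENCODE coordinates above. For Hat1 the GENCODE start, 71388958, lies before the whole window (71389010 to 71389309). The match began 28 bases before the RefSeq start of Hat1, at the start base of Kat8 and of Kat7, and 13 bases after that of Kat5. The window of Kat5 held 2 matches. The windows around the match are shown with the motif in capitals, 5′ to 3′ on the gene's strand, because they are what these promoters share.
Hat1, chr2:71389222-71389249: ccttgcggtcACTTCCGGcccgggagcg
Kat8, chr7:127912507-127912534: ctggccggtcACTTCCGGcacagcaatg
Kat7, chr11:95310229-95310256: caagcctcagCCGGAAGTtaaggaatag
Kat5, chr19:5610064-5610091: gcactcagctCCGGAAGTgacgtctccc
The Hat1 and Kat8 windows carry it as ACTTCCGG, and those of Kat7 and Kat5 as CCGGAAGT.

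The 250 bases before a start of Kat6b and before the start of Kat2a are shown. These genes had the lowest and the highest mean level per kilobase of merged exon over the 14 libraries. The levels are given below, with the order in 11 of the libraries. Capitals mark the GC box GGGCGG or its reverse complement CCGCCC, overlapping matches included.
Kat6b, chr14:21499520-21499769, plus strand: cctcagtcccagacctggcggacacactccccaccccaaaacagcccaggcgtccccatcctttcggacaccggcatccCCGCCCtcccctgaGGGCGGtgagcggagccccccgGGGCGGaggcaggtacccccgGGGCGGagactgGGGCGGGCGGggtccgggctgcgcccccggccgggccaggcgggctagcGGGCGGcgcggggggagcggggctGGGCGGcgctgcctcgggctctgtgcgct
Kat2a, chr11:100712468-100712717, minus strand: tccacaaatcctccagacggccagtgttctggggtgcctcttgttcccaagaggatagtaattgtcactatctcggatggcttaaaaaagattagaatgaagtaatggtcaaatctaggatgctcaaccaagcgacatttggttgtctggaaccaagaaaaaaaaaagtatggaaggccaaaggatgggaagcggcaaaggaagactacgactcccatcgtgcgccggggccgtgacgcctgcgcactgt
The Kat6b window held 8 GC boxes on both strands and the Kat2a window 0, against 35.7% of all windows with at least 1. The windows of Crebbp and Ep300 held 2 and 1. The GC content of the Crebbp window was 82.0%, at the 99.5 percentile of all windows. TGACGTCA, the full CREB site, stood in 1.79% of windows and in none of the members' 13. The absence of a match says only that these letters are not in this window.

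Acss2, the targeted gene, checks the labels. Its levels, as counts per 1000000 scaled by TMM (CPM), were 44.7, 41.3, 17.7 and 19.0 in dorsal knockdown and 52.3, 58.3 and 53.4 in dorsal control. All 4 dorsal knockdown libraries lay below all 3 controls, and the 2 groups were apart in this way, in either direction, for 7.05% of tested genes. The edgeR log2 fold change was -0.84 (SE 0.32, adjusted p = 0.964, unadjusted p = 0.0199). In ventral hippocampus the knockdown libraries stood at 28.8, 64.4 and 36.7 CPM against 49.6, 53.4, 48.0 and 47.5 CPM in controls. The library labelled ventral knockdown 3 thus lay above all ventral controls, and the library labelled total knockdown, at 58.0 CPM, lay within the range of the dorsal controls. The ventral log2 fold change was -0.21 (SE 0.32, adjusted p = 1.00), -0.60 (SE 0.33) without the library labelled ventral knockdown 3 and 0.0052 without ventral knockdown 2. The exons of Acss2 overlap those of Ggt7, Acss2os and Gss on the opposite strand.

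Gene reads numbered 2819837 to 13240179 in the 15 libraries used. The shallow ethanol libraries, dorsal knockdown 5 (5021 reads) and ventral knockdown 1 (8744 reads), and the 4 untreated ones (4279 to 221847 reads) were far below this. These 6 libraries had 2 to 100 reads over all 10 members and were not used for member levels, so ethanol itself could not be assessed. Rn45s, the ribosomal RNA precursor, took 0.625% to 20.7% of gene reads. In 3 libraries (dorsal knockdown 2, the library labelled ventral knockdown 3 and ventral control 1) its share was under 2%, at 1.17%, 1.08% and 0.625%, and in the other 11 grouped libraries it was 3.49% or more. Several members' levels differed between these 3 samples and the rest, as described first. The cut at 2% was chosen after seeing the data.

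Crebbp varied most among the members over the 14 libraries. It stood at 141, 23.8, 89.1 and 99.6 CPM in dorsal knockdown, at 167, 101 and 86.0 CPM in dorsal control, at 151, 34.3 and 136 CPM in ventral knockdown and at 34.8, 77.9, 124 and 93.6 CPM in ventral control. Its 3 lowest values were those of the 3 samples with little Rn45s, 1 in each of 3 groups. The mean was 31.0 ± 6.20 CPM there and 115 ± 30.1 CPM in the other 11 (SD), and the ranges, 23.8 to 34.8 and 77.9 to 167 CPM, did not overlap. The SD of its log2 level over the 14 libraries, 0.87, was at the 98.1 percentile of 2152 tested genes with a mean within 1.5 times its own, and 0.37 over the 11, at the 81.7 percentile. Over those 11 Kat2b varied most, with an SD of 0.50 at the 87.0 percentile of genes of like level.

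Ep300 and Kat6a, a paralogue of Crebbp and the MOZ gene, had their 3 lowest values in the same samples. Ep300 was 42.0 to 61.2 CPM in the 3 samples and 88.0 to 130 CPM in the others. For Kat6a the ranges were 37.2 to 58.5 and 71.7 to 130 CPM. Kat6b, which encodes MORF, overlapped slightly, at 41.4 to 64.4 and 63.8 to 106 CPM. Hat1 showed the opposite order. It stood at 20.5, 16.9 and 25.5 CPM in dorsal knockdown 2, the library labelled ventral knockdown 3 and ventral control 1, and at 7.89 to 15.1 CPM in the other 11. The other 5 members overlapped, with means of 69.8 and 70.6 CPM for Kat2a and 83.5 and 77.7 CPM for Kat7 in the 3 and the 11 samples. Values for each library are drawn in the plot of levels by group.

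**Figure D1:**
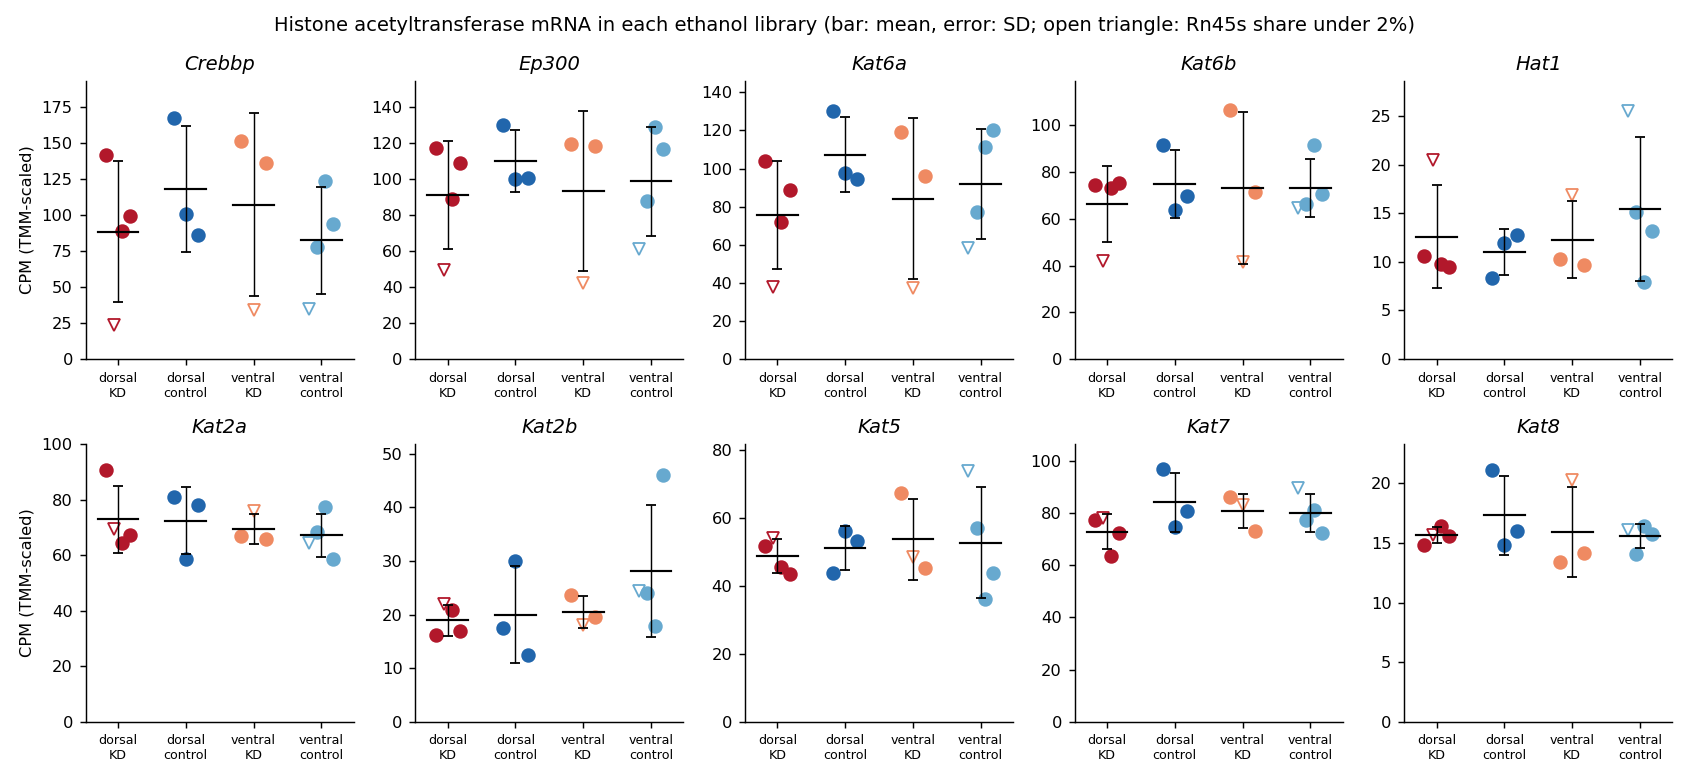
Level of each acetyltransferase mRNA in TMM-scaled CPM (vertical axis, from 0) in the 14 grouped ethanol libraries, by region and vector arm; bars are means, error bars SD, and open triangles the 3 libraries with an Rn45s share under 2%. Crebbp lies at 23.8 to 34.8 CPM in those 3 libraries and at 77.9 to 167 CPM in the others, while Hat1 is highest in the 3.

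Crebbp, Ep300 and Kat6a, 3 of 10 members, lay below the other 11 samples in all 3 of these, as did 8.02% of the 14132 tested genes with an annotated length and 28.2% of the longest 10% of them. Hat1 lay above in all 3, as did 10.8% of those genes and 23.9% of the shortest 10%. The 4 long members Crebbp, Ep300, Kat6a and Kat6b made up 37.1%, 37.1% and 42.7% of the CPM summed over members in the 3 samples, and 54.8% to 65.9% in the other 11. In the library labelled total knockdown, with an Rn45s share of 9.68%, they made up 65.1%. The summed CPM of the other 6 members ranged from 220 to 294 over all 15 libraries, and the highest value was that of ventral control 1.

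**Figure D2:**
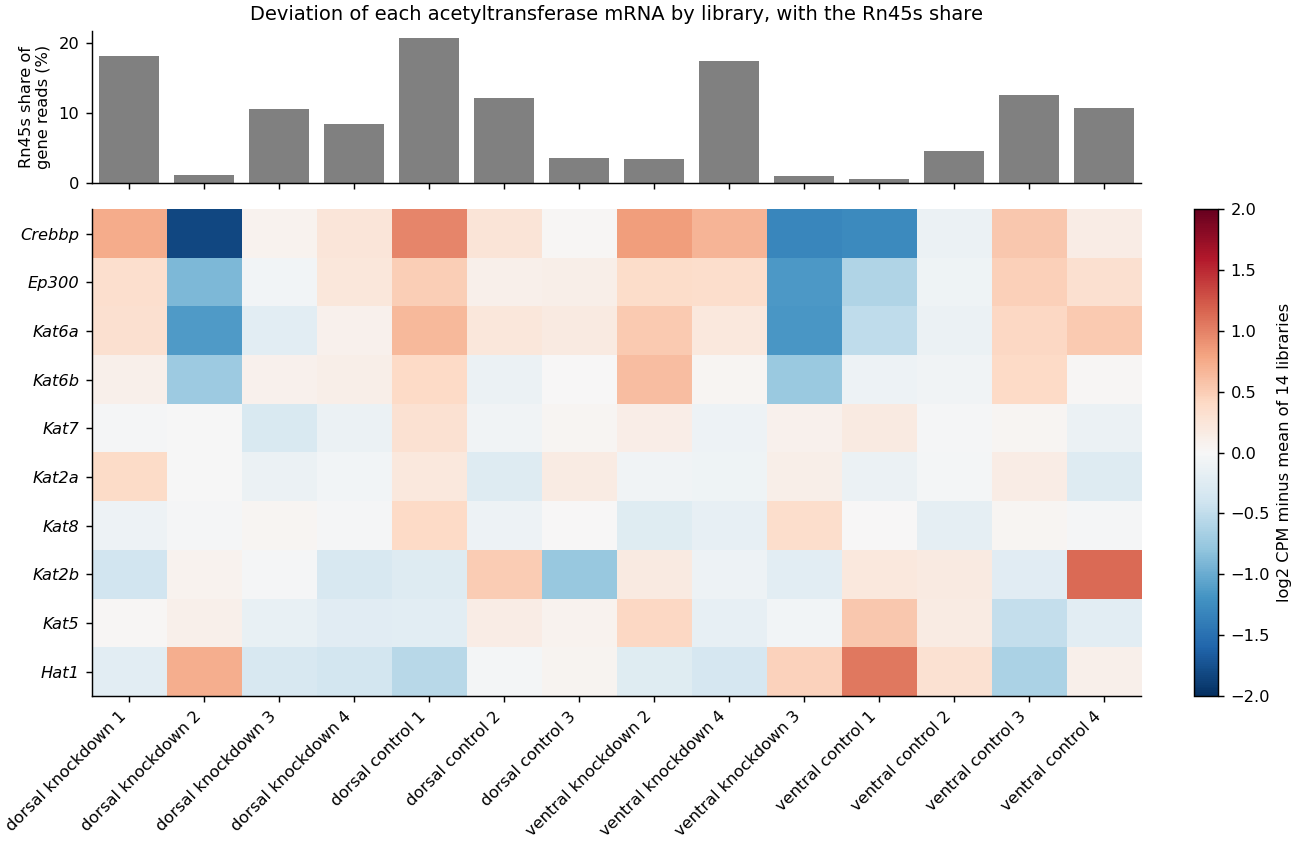
Upper panel, Rn45s share of gene reads in percent (bars) for each of 14 libraries; lower panel, colour for the log2 CPM of each member (rows) minus its mean over the 14 libraries (columns). Crebbp, Ep300 and Kat6a are blue in the 3 libraries with Rn45s shares of 1.17%, 1.08% and 0.625%, where Hat1 is red. Kat6b is near the mean (-0.11) in the library with 0.625%. No group is of 1 colour over all rows, though single rows can be.

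Longer genes as a whole were lower in dorsal knockdown 2 and the library labelled ventral knockdown 3, and only weakly so in ventral control 1. Across genes, Spearman's rho between exon length and a gene's log2 deviation was -0.49, -0.44 and -0.10 in dorsal knockdown 2, the library labelled ventral knockdown 3 and ventral control 1, and -0.16 to 0.28 in the other 11. The value of ventral control 1 thus lay within the range of the other 11. With the GC content of a gene's longest transcript in place of length, rho was -0.15, 0.06 and -0.61 in the same order. It was -0.40 to 0.38 in the other 11. Genes are not independent replicates, so these values carry no test. The median log2 difference (the 3 samples minus the 11) was -0.45 in the longest 10% of genes and 0.50 in the shortest 10%. Within classes of 10% of genes by length, Crebbp (-1.87) was at the 1.98 percentile, Kat6a (-1.19) at the 7.71 percentile, Ep300 (-1.12) at the 15.4 percentile and Kat6b (-0.67) at the 37.1 percentile. Hat1 (0.95) was at the 93.1 percentile of its length class. The nuclear RNA Malat1 was at 1304, 1392 and 1617 CPM in the 3 samples and at 1715 to 8940 CPM in the others. What these samples share, and its part in the members' levels, was not tested.

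**Figure D3:**
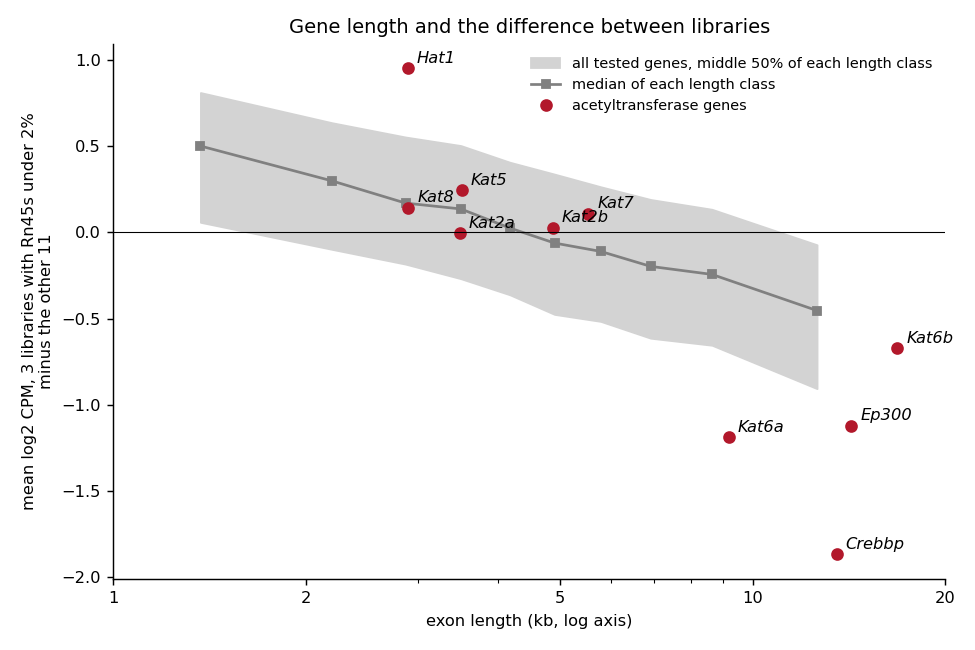
Merged exon length in kb (horizontal log axis) against the difference in mean log2 CPM between the 3 libraries with an Rn45s share under 2% and the other 11 (vertical axis); squares are medians of all tested genes in 10 classes of length, the band their middle 50%, and red points the members. Crebbp at -1.87, Kat6a at -1.19 and Ep300 at -1.12 lie under the band and Hat1 at 0.95 above it.

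Genes were ranked by level per kilobase of merged exon. The order of mean levels over the 14 libraries was Kat2a, Kat5, Kat7, Kat6a, Crebbp, Ep300, Kat8, Kat2b, Hat1 and Kat6b. Kat2a stood at 20.2 ± 2.59 CPM per kb (SD), above Kat5 in 13 of 14 libraries. Kat5 (14.7 ± 2.85) and Kat7 (14.3 ± 1.49) did not differ beyond their spread, Kat5 being above in 8 of 14. Kat6a (9.68 ± 3.18) was below Kat7 in 13 libraries and above Crebbp in all 14. Crebbp (7.17 ± 3.29) and Ep300 (6.86 ± 2.01) exchanged places, with Crebbp above in 7 of 14. Kat8 (5.55 ± 0.75), Kat2b (4.54 ± 1.68), Hat1 (4.51 ± 1.74) and Kat6b (4.25 ± 1.04) formed the low end, where each was above the next in 7 to 10 of 14. The merged exons hold all annotated transcripts, and the order depends on that choice of length. For Kat6b they measure 16.8 kb against 7.70 kb for its longest transcript, and for Kat5 3.509 against 2.245 kb. Kat7 has 5.54 against 3.56 kb and Kat8 2.89 against 1.58 kb, while Kat2a has 3.48 against 3.27 kb. An order by longest transcript was not made, so the first place of Kat2a and the last place of Kat6b hold for merged exons only. The place of Kat6b also depends on the 3 samples with little Rn45s. Over the other 11 libraries the first 7 genes kept this order, and Kat6b (4.62 ± 0.78), Kat2b (4.58 ± 1.89) and Hat1 (3.76 ± 0.76 CPM per kb) followed, so that Hat1 was lowest.

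**Figure D4:**
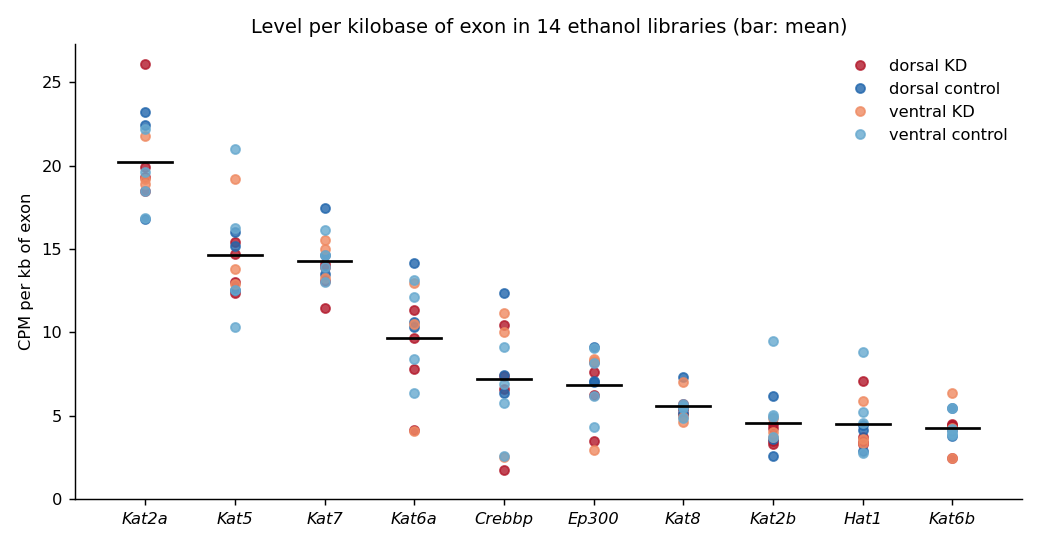
Level per kilobase of merged exon (vertical axis, CPM per kb) of each member in the 14 grouped ethanol libraries (points, coloured by group), in order of the mean (bar). Kat2a is highest at a mean of 20.2 CPM per kb and Kat6b lowest at 4.25 (over the 11 libraries without the 3 of low Rn45s share, Hat1 is lowest at 3.76), and the points of the 4 groups are mixed within each gene.

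In dorsal hippocampus no member passed the edgeR quasi-likelihood test between knockdown and control at a Benjamini-Hochberg adjusted p under 0.05. Among all tested genes 0% passed, and 4.58% had an unadjusted p under 0.05, against 0 of 10 members. DESeq2 called 11 genes and 0 members. The groups of levels overlapped for all 10, while they were apart for 7.05% of tested genes. The fitted log2 fold change was below 0 for 8 of 10 members, against 46.7% of tested genes, with a median of -0.15 against 0.03. Left without Rn45s in the counts, 9 members were below 0, Kat2a being then at -0.01. Without dorsal knockdown 2 and the other 2 libraries of low Rn45s share, 9 were below 0 and the median was -0.13. On leaving out 1 library the count was 7 to 9, and the median went from -0.26 without dorsal control 2 to -0.08 without dorsal control 1.

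Kat6a had the smallest p of the members in the dorsal comparison. Its levels were 104, 38.0, 71.7 and 88.6 CPM in knockdown and 130, 97.4 and 94.6 CPM in control, and the groups overlapped. The log2 fold change was -0.51 (SE 0.39, adjusted p = 0.999), a fold of 0.394 to 1.25 at 95%, and -0.28 without the 3 libraries. Crebbp, at 88.5 ± 48.7 CPM (SD, n = 4) and 118 ± 43.4 CPM (SD, n = 3), had -0.41 (SE 0.56), and -0.09 without the 3, with a range of -0.73 to -0.07 on leaving out 1 library. Ep300 had -0.27 (SE 0.37) and Kat6b -0.17 (SE 0.30). Of these 4 genes, only Crebbp had an interval that reached past 1.5 times in both directions (0.325 to 1.73).

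Kat2a, Kat5, Kat7 and Kat8 had narrower bounds than these 4 genes. Kat2a, the GCN5 gene, stood at 72.9 ± 12.1 CPM in dorsal knockdown and 72.5 ± 12.2 CPM in control, with a 95% interval of the fold of 0.768 to 1.32. For Kat7 (72.7 ± 6.72 and 84.1 ± 11.4 CPM) the interval was 0.678 to 1.10, and for Kat8 (15.6 ± 0.67 and 17.3 ± 3.31 CPM) 0.671 to 1.24. Kat5, the TIP60 gene, had 0.665 to 1.35. Kat2b, the PCAF gene, had a log2 fold change of -0.09 (SE 0.34), which became 0.36 without dorsal control 2 and -0.35 without dorsal control 3. Hat1 had 0.17 (SE 0.39), and -0.17 without the 3 libraries.

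Marker genes of microglia, of reactive astrocytes and of the interferon response all had fitted fold changes above 0 in the same comparison, with 0 called by edgeR or DESeq2. The summed level of 10 microglia markers was 466 to 1170 CPM in dorsal knockdown and 309 to 426 CPM in dorsal control, and that of 8 reactive astrocyte markers 917 to 4730 and 405 to 638 CPM. For 12 interferon-stimulated genes the sums were 136 to 1528 and 107 to 147 CPM, and only these of the 3 lists overlapped between the groups. No gene of these lists was at 0 in either group. In ventral knockdown and control the sums of all 3 lists overlapped. They were 417 to 521 and 313 to 667 CPM (microglia), 596 to 2095 and 380 to 1919 CPM (reactive astrocytes) and 189 to 585 and 130 to 929 CPM (interferon). The highest control value was that of ventral control 2 in each list. In the dorsal groups the sums of 9 neuron markers overlapped, at 5068 to 8285 and 5830 to 7019 CPM. Of 7 markers of CA1 and dentate neurons, 6 had a fold change below 0 (median -0.62, lowest -3.29), with sums of 431 to 845 and 698 to 1146 CPM. All 10 immediate early genes, which neuronal activity induces, were above 0 (median 1.60), with sums of 103 to 3667 and 377 to 831 CPM. The sums of these lists overlapped too, and edgeR and DESeq2 called 0 of their genes here. In tissue RNA, fewer cells of a type and less RNA per cell cannot be told apart, and the part of other cells in the members' values was not tested.

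In ventral hippocampus 0 of 10 members passed edgeR's adjusted threshold between knockdown and control, against 0% of tested genes. None had an unadjusted p under 0.05, against 4.07% of genes, and DESeq2 called 35 genes and 0 members. The log2 fold change was below 0 for 6 members, against 51.8% of genes, and for 8 with RLE scaling, while without the 3 libraries of low Rn45s share it was below 0 for 4. The median was -0.01 and that of all genes -0.01. On leaving out 1 library, the members' median went from -0.21 (7 below 0) without ventral knockdown 2 to 0.05 (5 below 0) without the library labelled ventral knockdown 3. No member's groups of levels were apart, against 2.66% of tested genes. Crebbp had 0.37 (SE 0.56), and 0.80 (SE 0.54) without the library labelled ventral knockdown 3, whose Acss2 was above the controls. The Crebbp value was 0.035 without ventral knockdown 2. Ep300 moved from -0.09 to 0.27 and Kat6a from -0.14 to 0.23 without the library labelled ventral knockdown 3, and to -0.31 and -0.47 without ventral knockdown 2.

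Kat2b had the smallest p of the members in the ventral comparison. It stood at 23.7, 18.1 and 19.5 CPM in knockdown and at 24.4, 23.9, 17.9 and 46.1 CPM in control. The log2 fold change was -0.48 (SE 0.34, adjusted p = 1.00). The high value belonged to ventral control 4, and without it the log2 fold change was -0.12 (SE 0.30). Leaving out other single libraries gave values down to -0.65. That library also held 15405 CPM of 7 choroid plexus markers, against 42.3 to 638 CPM in the other 13 grouped libraries. Choroid plexus lies beside the hippocampus, and its part in the Kat2b value was not tested.

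**Figure D5:**
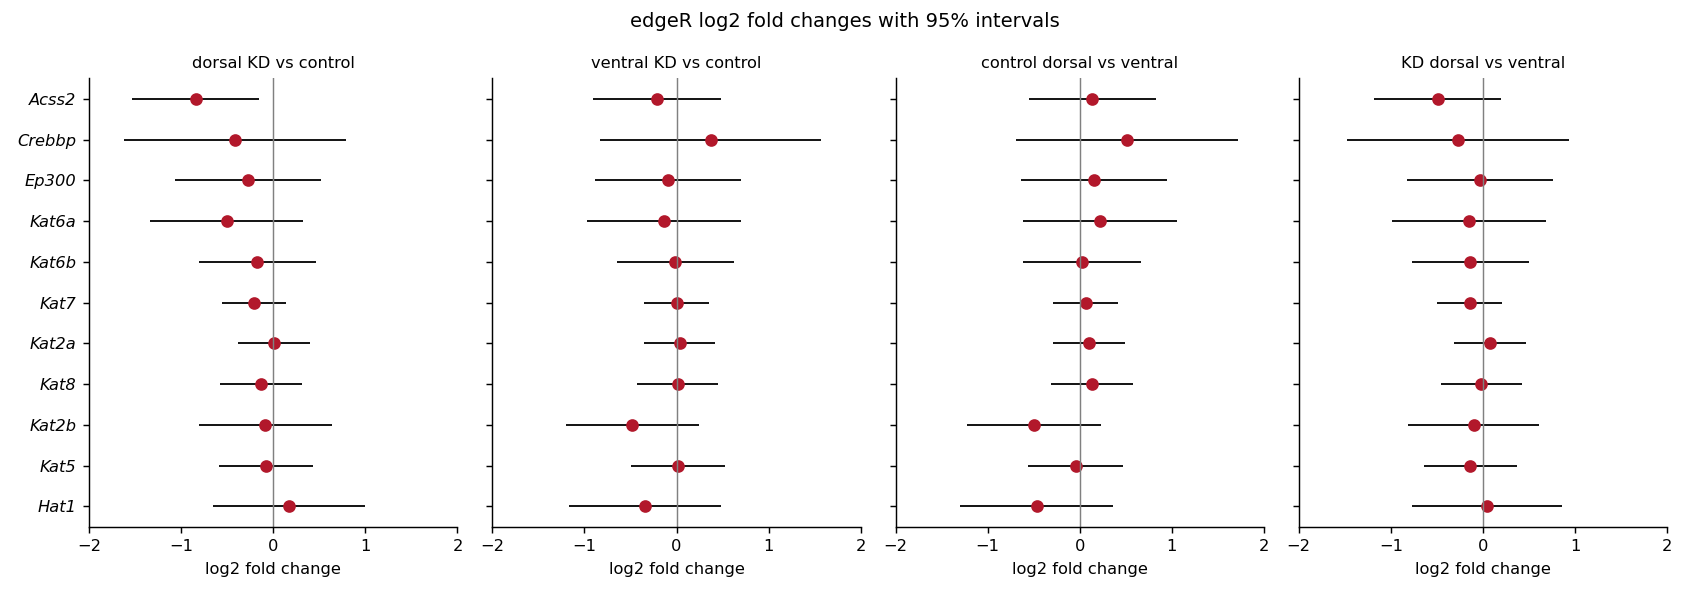
Log2 fold change of Acss2 and the 10 members from edgeR (points) with 95% intervals (lines) in 4 comparisons of ethanol libraries. The interval of Acss2 in the dorsal comparison ends below 0, and the interval of every member crosses 0 in all 4 panels.

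The mean of the dorsal and ventral knockdown effects gave 0 of 10 members past edgeR's threshold, 0 with an unadjusted p under 0.05 against 3.96% of genes, and 0 in DESeq2, which called 4 genes. The fold change was below 0 for 9 members, against 47.6% of genes, with a median of -0.09 against 0.01, and for 6 members without the 3 libraries or without the library labelled ventral knockdown 3 alone. Its median went from -0.16 without ventral knockdown 2 to -0.05 without dorsal control 1. This mean shares its libraries with both single comparisons and is no separate evidence. The difference between the dorsal and the ventral knockdown effect (dorsal minus ventral) passed for 0 members, with 0 at an unadjusted p under 0.05 against 4.61% of genes, and DESeq2 called 9 genes and 0 members. It was below 0 for 8 members, against 45.1% of genes, with a median of -0.15 against 0.05. That count fell to 5 without dorsal control 1 (median -0.02), without dorsal knockdown 2 (median -0.06) or without ventral knockdown 2 (median 0.01), and was 6 to 8 on leaving out any other library. Its values were -0.78 (SE 0.80) for Crebbp and 0.51 (SE 0.55) for Hat1, with ranges on leaving out 1 library of -1.20 to -0.44 and 0.16 to 0.80.

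Marker sums did not separate the regions. Those of 6 ventral hippocampus markers were 40.9 to 292 CPM in dorsal and 74.4 to 582 CPM in ventral control. In dorsal and ventral knockdown they were 74.2 to 452 and 30.8 to 177 CPM. Dcn, 1 of these 6, is also on the list of meningeal and fibroblast markers. Sums of that list were 40.4 to 263 CPM in dorsal and 101 to 529 CPM in ventral control. The overlap of sums therefore does not show that the regions were alike. Sums of 7 CA1 and dentate markers overlapped too, at 698 to 1146 and 500 to 818 CPM in dorsal and ventral control. Between dorsal and ventral control hippocampus, 0 of 10 members passed, against 0% of genes, and 0 had an unadjusted p under 0.05, against 5.58%. DESeq2 called 13 genes and 0 members. No member's groups of levels were apart, against 9.04% of tested genes. The fold change (dorsal over ventral) was above 0 for 7 members, against 43.6% of genes, and the median was 0.08 against -0.06. Without dorsal control 1 it was above 0 for 5 members (median -0.01), and with the log2 Rn45s share as a covariate also for 5 (median 0.02). The median was 0.18 without dorsal control 2 and 0.03 without ventral control 4. Kat2b had -0.49 (SE 0.34), -0.14 without ventral control 4 and -0.94 without dorsal control 2. Crebbp had 0.51 (SE 0.56), and 0.25 without the 3 libraries, with a range of 0.16 to 0.76 on leaving out 1. Hat1 had -0.47 (SE 0.39), and -0.09 without the 3, with a range of -0.70 to -0.11 on leaving out 1. In the knockdown arm, dorsal against ventral, 0 members passed against 0% of genes. None was under an unadjusted p of 0.05, against 2.17% of genes, and DESeq2 called 0 genes. The fold change was below 0 for 8 members, against 52.1% of genes, but for 3 (median 0.06) without ventral knockdown 2 and for 5 (median 0.01) without dorsal knockdown 2. No member's groups of levels were apart, against 1.78% of genes. Kat7 had the smallest p there, with -0.15 (SE 0.16), and a 95% interval of the fold of 0.710 to 1.15.

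Partner genes were read from lists of complexes. In the dorsal knockdown comparison edgeR and DESeq2 called 0 genes of any of these lists. Of 18 CBP and p300 partners, 14 had a fold change below 0 (median -0.14), and 12 without the 3 libraries. The 1 with an unadjusted p under 0.05 was Cited2, which competes for a domain of CBP and p300, at 53.7 ± 4.0 CPM in knockdown and 26.8 ± 6.87 CPM in control (log2 fold change 0.99, SE 0.29, adjusted p = 0.955 in edgeR). Of 25 SAGA and ATAC subunits 12 were below 0 (median 0.00), and of 17 TIP60 complex subunits 6 (median 0.06). Of 8 scaffolds of the MOZ, MORF and HBO1 complexes 6 were below 0 (median -0.13), and of 11 subunits of the MOF complexes 6 (median -0.02). None of these 4 lists had a gene with an unadjusted p under 0.05.

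Among 4 tested partners of HAT1 and histone chaperones, Nasp, a chaperone of histone H3 and H4, was at 13.7 ± 3.53 and 20.2 ± 3.04 CPM (log2 fold change -0.55, SE 0.23, adjusted p = 0.999 in edgeR). Of 8 other proteins with reported acetyltransferase activity 6 were below 0, with Gtf3c4 at -0.51 (SE 0.21). Of 22 acetyl-lysine readers, which bind the mark, 16 were below 0 (median -0.14), and 14 without the 3 libraries, with 0 under an unadjusted p of 0.05. Of 4 inhibitors of histone acetylation 2 were below 0.

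In the ventral knockdown comparison both tools again called 0 genes of the partner lists. Supt20, a SAGA subunit, had the smallest p of its list, at 19.3 ± 4.18 CPM in knockdown and 28.0 ± 5.34 CPM in control (log2 fold change -0.55, SE 0.21). Anp32b, of the inhibitor list, stood at 46.1 ± 8.83 and 61.2 ± 4.29 CPM (-0.42, SE 0.17). Both had an edgeR adjusted p = 1.00. All 4 tested HAT1 partners and chaperones were below 0 (median -0.29), also without the 3 libraries, and 15 of 22 acetyl-lysine readers were, but 8 without the 3.

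Members were also compared with each other by correlation. Because the 3 samples stand apart, correlations of log2 CPM were taken over the other 11 libraries, with permutation p-values adjusted over 45 pairs of members. Ep300 and Kat6a had Pearson's r = 0.88 (adjusted permutation p = 0.0238, unadjusted 0.00053) and Spearman's rho = 0.80 (adjusted permutation p = 0.0897). Without the 2 libraries farthest from the median Ep300 level r was 0.71. Crebbp and Ep300 had r = 0.83 and rho = 0.85 (adjusted permutation p = 0.0529 and 0.0801), and r = 0.79 without the 2 libraries farthest from the median of Crebbp. Kat2a and Kat2b, the alternative subunits of SAGA and ATAC, had r = -0.75 and rho = -0.79 (adjusted permutation p = 0.0958 and 0.0897). Without the 2 libraries farthest from the median of Kat2a r was -0.83. Ventral control 4 and dorsal control 2, with the highest Kat2b levels (46.1 and 30.0 CPM) and low Kat2a (58.7 and 58.5 CPM), stayed in that value. A correlation without them was not computed. Of the 45 pairs, only that of Ep300 and Kat6a had an adjusted p under 0.05 for r, and none had for rho. The libraries come from 4 groups and differ in depth, in Rn45s share and in the rho with exon length (-0.16 to 0.28 over these 11). The permutation took no account of this. Ep300 and Kat6a are both among the 4 long members, and the part of gene length in their correlation was not tested. The share of all gene pairs with a like r was not computed. Among genes picked for likeness, Zfp236 had r = 0.97 with Ep300 and Srcap r = 0.96 with Crebbp over the same 11 libraries. The values therefore do not show a relation particular to the members.

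Genes most like a member were taken by Pearson's r of log2 CPM over 14 libraries among 11397 genes. For Crebbp these were Srcap (0.991), Nav2 (0.980) and Arid1a (0.980), and for Ep300 Zfp236 (0.991), Stox2 (0.979) and Huwe1 (0.977). All 6 had exons of 10.5 kb or more, and over the 11 libraries their r was 0.82 to 0.97. For Kat2a they were Coro2b (0.946), Nckipsd (0.916) and Capn5 (0.901), and for Kat2b Trim59 (0.878), Abhd5 (0.874) and Olfml1 (0.866).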

How the data were processed

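Libraries were made from hippocampal RNA. One table deposited by the authors holds raw read counts for 21 libraries. STAR 2.5.2a, HTSeq 0.6.1p1 and mm10 are named in the submitters' processing notes. The 5 summary lines were left out. Groups come from the sample titles, and members and gene lists were chosen with earlier results of these data known.

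Counts of the 14 grouped ethanol libraries with over 1000000 gene reads were tested with edgeR 4.0.16 (R 4.3.3): TMM scaling after filterByExpr (minimum count 10), group means, a robust quasi-likelihood fit and Benjamini-Hochberg adjustment over 14578 genes at 0.05. Levels are CPM after TMM scaling over 15 libraries without that filter. Alternatives were DESeq2 1.42.0, RLE scaling, no filter, other sets of libraries, Rn45s left out or as a covariate, the replicate number as a block, and leaving out single libraries. All members and Acss2 are named, and from each list of partners the called genes or else the smallest p. The scripts were tested on simulated data. Same-numbered libraries are not paired by the labels.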

Additional observations from a re-analysis of the deposited data

Results flagged for a closer look

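Of 22 pairs of a gene and a group of 4 libraries that were examined, 2 held a library far from the others. A rate of about 1 in 20 by chance would apply to independent pairs. These pairs share libraries, so that rate is no test of the 2. Kat6b was 41.8 CPM in dorsal knockdown 2, and 73.3 to 75.4 CPM in the other 3 dorsal knockdown libraries. Hat1 was 20.5 CPM in dorsal knockdown 2, and 9.51 to 10.6 CPM in the other 3. Both values belong to the same library, in which Rn45s took 1.17% of gene reads.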

How the results depend on the processing

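No member was called by any comparison under any of the alternatives tried, and Acss2 was not called either. Counts of all called genes, 0 in edgeR, were 11, 35, 4, 13, 0 and 9 in DESeq2 (dorsal, ventral and mean knockdown effect, control dorsal against ventral, knockdown dorsal against ventral, and dorsal minus ventral effect). Without the 3 libraries of low Rn45s share, an alternative chosen after seeing the data as was the Rn45s covariate, 7, 3, 12 and 6 genes were called in the ventral, mean, control region and dorsal minus ventral comparisons. With all 20 libraries in 6 groups 1 gene was called in the ventral comparison and 1 in the difference, and 1 in the ventral comparison with the shallow libraries included or with the covariate. Leaving out 1 library at a time gave ranges of 0 to 8 (ventral), 0 to 2 (mean), 0 to 6 (control regions) and 0 to 2 (dorsal minus ventral), the 8 and the 6 without ventral control 1. On leaving out 1 library, 531 single fold changes kept their sign and 85 changed it. Over all alternatives, these included, single fold changes changed sign in 132 cases, none of them past the threshold. With RLE scaling they were, in the ventral comparison Kat5 -0.00033, Kat8 -0.0014. With Rn45s left out they were, in the dorsal comparison Kat2a -0.0052. In DESeq2 they were, in the ventral comparison Kat8 -0.0036. With no low-count filter they were, in the ventral comparison Kat7 0.015. With only the groups compared they were, in the ventral comparison Kat7 0.011. With all 20 libraries in 6 groups they were, in the dorsal comparison Kat2a -0.034, in the ventral comparison Kat2a -0.018, Kat5 -0.025, Kat8 -0.0061, in the mean knockdown effect Kat2a -0.026, in the knockdown regions Ep300 0.051. With the shallow ethanol libraries included they were, in the dorsal comparison Kat2a -0.013, in the ventral comparison Kat2a -0.011, Kat5 -0.019, Kat8 -0.00082, in the mean knockdown effect Kat2a -0.012, in the knockdown regions Ep300 0.047. With the replicate block they were, in the ventral comparison Kat6b 0.015, Kat7 0.057, in the mean knockdown effect Kat5 0.030, in the knockdown regions Hat1 -0.057. Without the 3 libraries of low Rn45s share they were, in the dorsal comparison Hat1 -0.17, in the ventral comparison Ep300 0.079, Kat2a -0.056, Kat6a 0.045, Kat6b 0.20, Kat7 0.034, Kat8 -0.18, in the mean knockdown effect Crebbp 0.22, Ep300 0.0068, Kat2a -0.0090, Kat5 0.079, Kat6b 0.10, in the control regions Ep300 -0.019, Kat5 0.17, Kat6b -0.033, in the knockdown regions Kat8 0.20, in the dorsal minus ventral effect Kat2a 0.093, Kat8 0.061. With the log2 Rn45s share as a covariate they were, in the dorsal comparison Hat1 -0.013, in the mean knockdown effect Crebbp 0.049, in the control regions Ep300 -0.095, Kat5 0.11, Kat6a -0.044, Kat6b -0.14, in the knockdown regions Kat8 0.00022. Ranges on leaving out 1 library that crossed 0 were as follows. For the dorsal comparison they were Kat2a -0.13 to 0.11, Kat6b -0.28 to 0.0070, Hat1 -0.16 to 0.29, Kat8 -0.23 to 0.028, Kat2b -0.35 to 0.36. For the ventral comparison they were Kat5 -0.18 to 0.22, Acss2 -0.60 to 0.0052, Ep300 -0.31 to 0.27, Kat2a -0.023 to 0.098, Kat6a -0.47 to 0.23, Kat6b -0.39 to 0.28, Kat8 -0.18 to 0.12, Kat7 -0.050 to 0.073, Hat1 -0.62 to 0.017. For the mean knockdown effect they were Kat2a -0.046 to 0.074, Crebbp -0.18 to 0.20, Ep300 -0.29 to 0.00061, Kat5 -0.13 to 0.075, Kat6b -0.28 to 0.056, Kat8 -0.15 to 0.026, Hat1 -0.25 to 0.096. For the control regions they were Kat5 -0.20 to 0.16, Kat6b -0.15 to 0.14, Kat7 -0.054 to 0.14, Kat8 -0.029 to 0.23, Ep300 -0.028 to 0.30. For the knockdown regions they were Kat2a -0.047 to 0.13, Kat8 -0.12 to 0.18, Crebbp -0.70 to 0.059, Ep300 -0.39 to 0.19, Kat6a -0.52 to 0.19, Kat6b -0.43 to 0.24, Hat1 -0.29 to 0.33, Kat2b -0.19 to 0.022, Kat5 -0.25 to 0.065. For the dorsal minus ventral effect they were Ep300 -0.53 to 0.045, Kat2a -0.16 to 0.063, Kat6b -0.44 to 0.22, Kat5 -0.29 to 0.11, Kat8 -0.25 to 0.056. The cause of these changes was not tested, beyond the fewer libraries in some fits. Replicate numbers do not pair the libraries: over 18 same-numbered pairs the correlation of deviations from group means was -0.22 to 0.37 (median 0.0047), and 4 of 14 libraries correlated best with their own number. With the replicate block 0 genes were called in each comparison, and the members' median was -0.14 in the dorsal and 0.03 in the ventral comparison. Depth limits Hat1 and Kat8 most, with as few as 19 reads for a member in dorsal control 1.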
